A study of Homo sapiens with 9 samples.

Results

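The BMP target genes with hepcidin were examined in HepG2, a cell line established from a human liver tumor, cultured with or without glutamine (Gln). The set holds 8 genes, ID1, ID2, ID3, ID4, SMAD6, SMAD7, BAMBI and HAMP. They were chosen by name as genes that respond to BMP signals, with earlier results of these data known. Each had a row among the 22587 genes of the deposited table, and 7 of the 8 passed the filter for testing. RNA was sequenced from 9 libraries in 3 groups of 3, namely Gln added (the controls), Gln-deprived for 12 h and Gln-deprived for 24 h. The medium was changed 24 h after seeding, and nothing states that replicates came from separate cultures, so that p-values measure only the spread between these libraries, which may be technical. The labels list GlutaMAX, a dipeptide source of Gln, as the treatment of the cultures with Gln added, whereas the treatment protocol and the methods put it in the medium of the deprived cells. The labels list no BMP, BMP inhibitor, iron or IL-6 among the treatments, so the set is called by its known response and not by one measured here.

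Bone morphogenetic proteins (BMPs) bind pairs of type I and type II receptors on the cell surface, which phosphorylate SMAD1, SMAD5 and SMAD9. These join SMAD4 in the nucleus and switch on a small set of genes, among them the ID genes and the pathway's own inhibitors SMAD6, SMAD7 and BAMBI. In hepatocytes the same pathway drives HAMP, which encodes hepcidin, the hormone that closes the iron exporter ferroportin. BMP6 from neighbouring endothelial cells is the main ligand in the liver, and hemojuvelin (HJV), HFE and TFR2 tune the signal to iron supply.

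The stretch of 250 bases before the start of a gene is printed for 4 members, since HAMP and BAMBI, which moved in opposite directions, both hold the GC-rich palindrome of SMAD1 and SMAD5, SMAD6 holds the palindromic SMAD box, and ID3 shares a STAT palindrome with HAMP. The sequences are RefSeq's on GRCh38.p14, read 5′ to 3′ on the strand of the gene. They lie at chr19:35282278-35282527 (plus strand) for HAMP, chr10:28677271-28677520 (plus strand) for BAMBI, chr15:66701986-66702235 (plus strand) for SMAD6 and chr1:23559502-23559751 (minus strand) for ID3. Capitals mark the GC-rich palindrome GGCGCC, the SMAD4 box GTCTG or its reverse complement, which reads CAGAC, the palindromic SMAD box GTCTAGAC and the STAT palindrome TTCNNNGAA.
HAMP: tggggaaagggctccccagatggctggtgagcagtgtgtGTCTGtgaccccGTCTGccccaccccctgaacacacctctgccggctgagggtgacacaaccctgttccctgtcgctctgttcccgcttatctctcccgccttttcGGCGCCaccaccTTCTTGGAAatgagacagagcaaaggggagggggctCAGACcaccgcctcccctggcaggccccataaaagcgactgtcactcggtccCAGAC
BAMBI: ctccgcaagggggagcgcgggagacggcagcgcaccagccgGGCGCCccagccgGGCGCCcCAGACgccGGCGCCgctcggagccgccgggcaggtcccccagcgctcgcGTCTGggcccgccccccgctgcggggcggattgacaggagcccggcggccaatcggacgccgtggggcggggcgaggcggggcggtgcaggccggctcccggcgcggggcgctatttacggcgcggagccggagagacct
SMAD6: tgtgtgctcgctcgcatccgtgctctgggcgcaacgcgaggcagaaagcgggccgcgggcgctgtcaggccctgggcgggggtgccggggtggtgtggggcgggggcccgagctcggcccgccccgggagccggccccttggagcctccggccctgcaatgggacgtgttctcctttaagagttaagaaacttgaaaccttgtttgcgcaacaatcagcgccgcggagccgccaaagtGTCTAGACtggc
ID3: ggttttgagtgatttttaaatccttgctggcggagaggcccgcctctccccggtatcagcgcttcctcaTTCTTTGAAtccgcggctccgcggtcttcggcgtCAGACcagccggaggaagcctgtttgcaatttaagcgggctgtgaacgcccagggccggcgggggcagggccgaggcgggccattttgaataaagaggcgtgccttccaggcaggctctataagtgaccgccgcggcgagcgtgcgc

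All 8 members matched an entry by symbol, SMAD7 with 3 starts, and each motif was searched on both strands of the 250 bases of 35116 promoters. GGCGCC stood once in HAMP, 105 to 100 bases before the start, and 3 times in BAMBI, and 16.4% of all promoters held it. G and C made up 62.4% of the stretch of HAMP and 81.2% of that of BAMBI, against a median of 58% over all promoters. The shares of promoters were not matched for this content. GTCTG stood in ID3, ID4, SMAD7, HAMP and BAMBI, against 38% of promoters. GTCTAGAC stood in SMAD6 alone among the members, 12 to 5 bases before the start, against 0.182% of promoters. TTCNNNGAA, the STAT palindrome, stood in HAMP 93 to 85 bases before the start and in ID3, against 6.57% of promoters. Of the other motifs, GGGGCGGG (SP1, 21.8% of promoters) stood in ID1, ID4, SMAD6 and BAMBI, CCAAT (NF-Y, 32%) in ID1, ID2, ID4 and BAMBI, the TATA box motif TATAAA (10.7%) in ID1, ID4 and SMAD7, and CAGCTG (E-box, 14%) in ID2 and ID4. CAGGTG (E-box of E proteins, 17.5%) stood in SMAD7, GCGGGGGCG (EGR, 4.72%) in ID4 and TGACG (CREB and ATF core, which is also part of the full site, 21.2%) in ID3. No member held TGACGTCA (CREB and ATF, 1.65%), TGATGNAAT (ATF4 and CEBP, 0.888%), TGAGTCA (AP-1, 4.2%), CACGTG (USF and MYC, 6.34%) or GCGTGGGCG (EGR, 0.72%) in this window. A match is a run of letters and was not tested for binding.

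In the GENCODE v44 annotation on GRCh38 the members are protein-coding genes on 8 chromosomes. ID1 lies at chr20:31605283-31606515, ID2 at chr2:8678845-8684461, ID3 at chr1:23557926-23559501 and ID4 at chr6:19837370-19842197. SMAD6 lies at chr15:66702236-66782849, SMAD7 at chr18:48919853-48950965, HAMP at chr19:35280716-35285143 and BAMBI at chr10:28677510-28682932. Of the exonic bases of ID2, 6.55% are shared with ID2-AS1 on the opposite strand, and the other members share none. The methods describe the libraries as strand-specific, the labels name another kit, and whether the counting used strand is not given in the sources used here, so it is not known whether reads of ID2 and ID2-AS1 in that stretch were separated. The gene length behind the FPKM was 406 bases for HAMP, whereas the exons of its GENCODE model cover 2862.

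Levels are given as the deposited FPKM, the fragments of a gene divided by its length and by the number of fragments in its library. Whole fragment numbers were recovered from it for 100% of the genes, with 29621270 to 36261546 fragments per library. Group differences are log2 fold changes of FPKM + 0.1 with their standard error (SE), from limma with Benjamini-Hochberg adjustment over the 11880 genes that averaged 0.5 FPKM or more, and a gene was called at an adjusted p under 0.05. Libraries were also compared by the exact permutation test of 3 against 3 (two-sided), whose smallest p is 0.1 and which therefore cannot reach 0.05. In RNA of whole cultures, fewer cells that express a gene and less RNA of it per cell cannot be told apart.

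HAMP fell at both times and further between them. With Gln added its level was 59.9, 59.4 and 55.1 FPKM in the 3 libraries, at 12 h it was 35.3, 32.9 and 33.6, and at 24 h it was 20.5, 17.1 and 18.4. The 3 groups did not overlap, and each time held lower values than the one before it. These levels rest on 796 to 868 fragments in each library with Gln added, on 424 to 491 at the earlier time and on 231 to 298 at the later one. With SD over n = 3, the means were 58.1 ± 2.63, 33.9 ± 1.20 and 18.7 ± 1.72 FPKM, the last 2 being 0.583 and 0.321 times the mean with Gln added. By limma the log2 fold change was -0.78 (SE 0.0629, adjusted p = 2.21e-06) at 12 h and -1.64 (SE 0.0629, adjusted p = 5.29e-09) at 24 h. Between 12 h and 24 h it was -0.86 (SE 0.0629, limma adjusted p = 1.36e-05). Among the 11880 genes tested, HAMP had the 516th largest fall at 12 h, the 55th at 24 h and the 24th between the times.

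**Figure D1:**
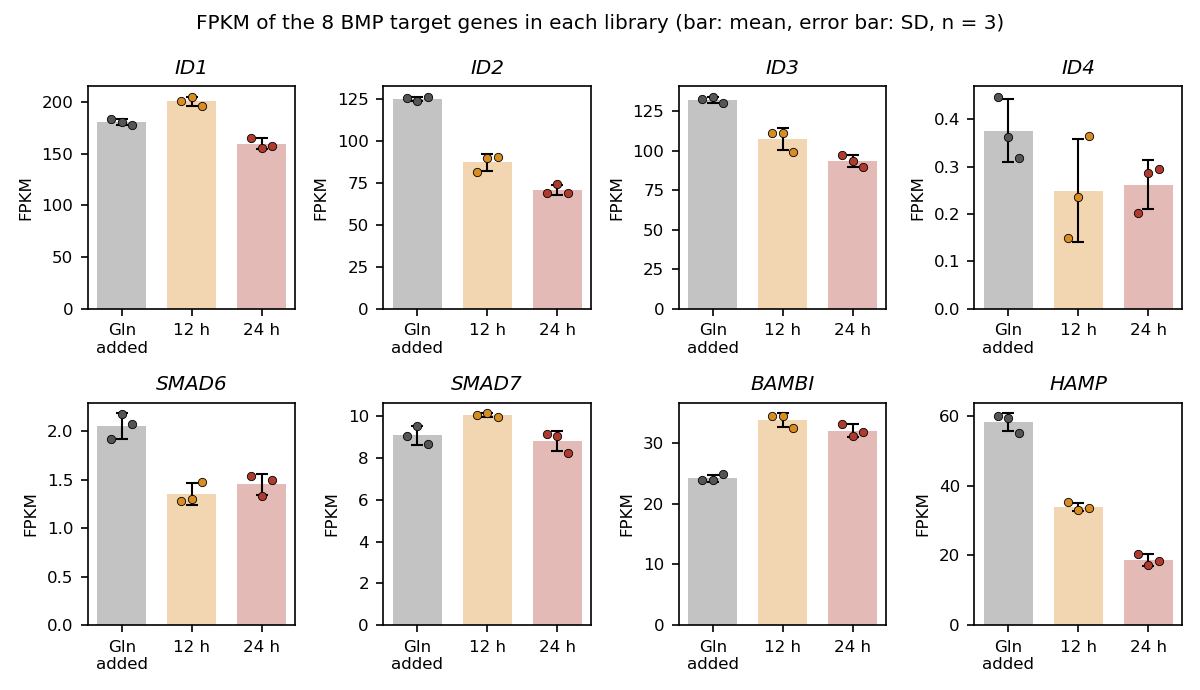
FPKM of the 8 members (vertical axis of each panel, from 0) in the 3 groups, with 1 point per library, bars for the mean and error bars for the SD (n = 3). HAMP stepped down from 58.1 to 33.9 and 18.7 FPKM, ID1 was highest at 12 h, and BAMBI was higher in all 6 deprived libraries than with Gln added.

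The ID genes encode inhibitors of DNA binding, which pair with E proteins and keep them from DNA. ID2 and ID3 fell at both times, while ID1, the most abundant member in every group, rose at 12 h and fell below its starting level at 24 h. The levels of ID1 were 184, 180.3 and 178 FPKM with Gln added, 201, 205 and 196 at 12 h and 165, 155 and 157 at 24 h. No library of one group reached into another. The log2 fold change of ID1 was 0.15 (SE 0.0348, limma adjusted p = 0.00306) at 12 h and -0.18 (limma adjusted p = 0.000918) at 24 h, and -0.33 (limma adjusted p = 0.000115) from 12 h to 24 h. These 3 calls stood under all 19 alternative settings.

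ID2 stood at 125, 124 and 126 FPKM with Gln added, at 81.5, 89.7 and 90.2 at 12 h and at 68.7, 74.4 and 69.0 at 24 h. Its groups did not overlap, with the largest step before 12 h. The log2 fold change was -0.52 (SE 0.0465, limma adjusted p = 4.34e-06) at 12 h, -0.82 (limma adjusted p = 9.44e-08) at 24 h and -0.30 (limma adjusted p = 0.00145) between the times.

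ID3 stood at 133, 134 and 130.3 FPKM with Gln added, at 111, 112 and 99.4 at 12 h and at 97.4, 93.3 and 89.6 at 24 h. All deprived libraries lay below those with Gln added, and the lowest library at 12 h came close to the highest at 24 h. The log2 fold change was -0.30 (SE 0.0489, limma adjusted p = 0.000323) at 12 h, -0.50 (limma adjusted p = 6.08e-06) at 24 h and -0.20 (limma adjusted p = 0.0168) between the times. The last call was lost without 12 h replicate 1, 12 h replicate 2 or 24 h replicate 3.

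ID4 was near the floor, at 0.319 to 0.448 FPKM in the controls, 0.148 to 0.366 after 12 h and 0.202 to 0.296 at 24 h, on 17 to 62 fragments per library. It did not pass the filter on low values. Its libraries at 24 h lay below those with Gln added and those at 12 h overlapped them. With no filter, its log2 fold change was -0.49 (limma adjusted p = 0.188) at 12 h and -0.40 (limma adjusted p = 0.275) at 24 h, so that no difference was detectable at this depth.

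Summed over ID1 to ID4, the level was 438 ± 4.10 FPKM in the group with Gln added (SD, n = 3), falling to 396 ± 10.3 after 12 h and to 324 ± 7.71 after 24 h of deprivation. ID1 made up 41.2% ± 0.32 of this sum in the controls (SD, n = 3), then 50.8% ± 0.29 after 12 h and 49.2% ± 1.04 after 24 h. Its share was larger in every deprived library than in any control library. Within each library the ratio of ID2 to ID1 was 0.682 to 0.710 with Gln added, 0.406 to 0.459 at 12 h and 0.416 to 0.479 at 24 h. The deprived groups overlapped each other (two-sided exact permutation p = 0.7) and neither overlapped the group with Gln added (exact permutation p = 0.1, the smallest possible). Ratios and shares were chosen after the values were seen.

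The 3 inhibitors that BMP signals induce did not move together. BAMBI, a membrane protein that resembles a type I receptor without its kinase and blocks signalling, rose. SMAD6, the inhibitory SMAD that acts mainly on BMP receptors, fell, and SMAD7, which acts on both BMP and TGF-beta receptors, rose slightly at 12 h and was not called at 24 h.

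BAMBI was at 23.9, 23.8 and 24.9 FPKM with Gln added, 34.4, 34.5 and 32.5 at 12 h and 33.2, 31.2 and 31.9 at 24 h. All 6 deprived libraries were higher, and the 2 times overlapped. The log2 fold change was 0.48 (SE 0.0404, limma adjusted p = 2.87e-06) at 12 h and 0.40 (limma adjusted p = 7.72e-06) at 24 h. Between the times it was -0.08 (95% confidence interval -0.17 to 0.01, limma adjusted p = 0.218).

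SMAD6 was at 1.92, 2.18 and 2.08 FPKM with Gln added, 1.28, 1.30 and 1.48 at 12 h and 1.54, 1.33 and 1.5 at 24 h. The deprived libraries were lower and the 2 times overlapped. The log2 fold change was -0.57 (SE 0.0966, limma adjusted p = 0.000443) at 12 h and -0.47 (limma adjusted p = 0.00138) at 24 h. Between the times it was 0.10 (95% confidence interval -0.11 to 0.31, limma adjusted p = 0.506).

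SMAD7 was at 9.05, 9.55 and 8.68 FPKM with Gln added, 10.1, 10.2 and 9.99 at 12 h and 9.14, 9.07 and 8.26 at 24 h. The libraries at 12 h were the highest and the other groups overlapped each other. Its log2 fold change was 0.15 (SE 0.0533, limma adjusted p = 0.0330) at 12 h, -0.04 (95% confidence interval -0.16 to 0.07, limma adjusted p = 0.499) at 24 h and -0.19 (limma adjusted p = 0.0291) between the times. The call at 12 h was lost with no filter on low values (limma adjusted p = 0.0513) and without any 1 of Gln added replicates 1 and 3 and the 12 h replicates 1, 2 and 3, with an adjusted p of 0.0132 to 0.125 by limma over the 19 alternatives. The call between the times was lost in 6 of the 19.

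Of the 7 members tested, 7 were called at 12 h, 3 higher and 4 lower. In all genes tested 60.2% were called at 12 h, 29.1% higher and 31% lower. At 24 h 6 were called, 1 higher and 5 lower, where 64.7% of all genes were called, 33% higher and 31.7% lower. The groups did not overlap for 7 of the tested members at 12 h and 6 at 24 h, against 67.2% and 69.9% of all genes tested. Between 12 h and 24 h 5 of the 7 were called, all lower, where 20.1% of all genes were called, 9.57% higher and 10.5% lower, and the groups did not overlap for 5, against 34.4% of all genes. Without 12 h replicate 1, 12 h replicate 2 or 24 h replicate 3, 3 of the 7 were called between the times. The median log2 fold change over the tested members was -0.30 at 12 h, -0.47 at 24 h and -0.20 between the times, beside -0.02, 0.01 and 0.02 over all genes tested. Both comparisons with Gln added share the same 3 control libraries, and the members were chosen with earlier results of these data known.

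**Figure D2:**
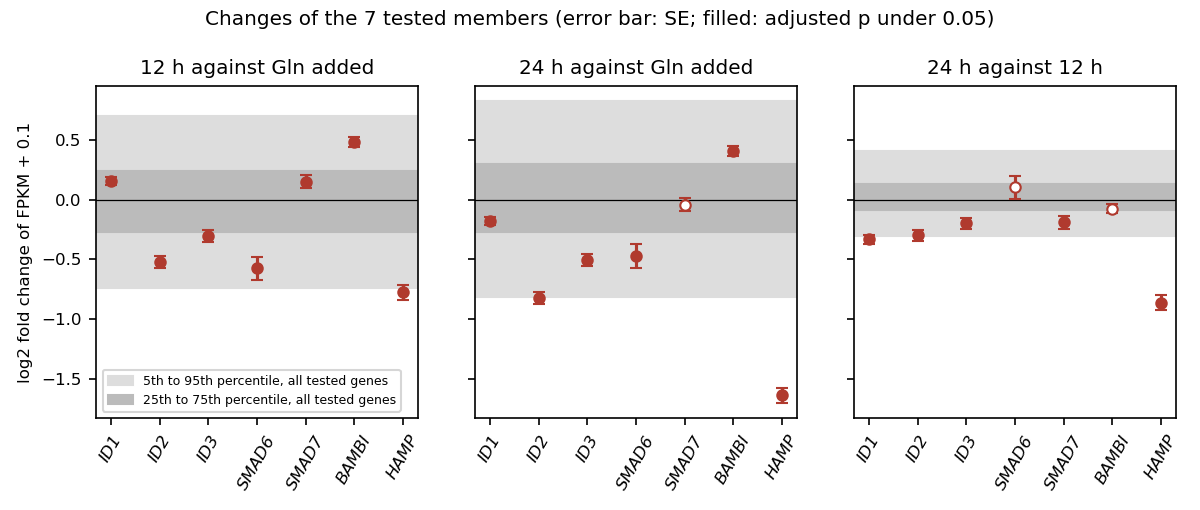
Log2 fold change of FPKM + 0.1 (vertical axis) of the 7 tested members in each comparison, with error bars for the SE and filled points where the adjusted p was under 0.05. Grey bands span the 25th to 75th and the 5th to 95th percentiles of all tested genes. HAMP lies below the wider band in each panel, at -0.78, -1.64 and -0.86. ID2 at 24 h (-0.82) and ID1 between the times (-0.33) also lie below it.

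The order of the levels was ID1, ID3, ID2, HAMP, BAMBI, SMAD7, SMAD6 and ID4 with Gln added, and each member's libraries lay above those of the next. At 12 h HAMP and BAMBI overlapped, and at 24 h BAMBI lay above HAMP. Within each library the ratio of HAMP to BAMBI was 2.40 ± 0.16 in the controls (SD, n = 3), 1.00 ± 0.04 after 12 h and 0.581 ± 0.03 after 24 h. The ratio of HAMP to ID1 was 0.322 ± 0.01, 0.169 ± 0.01 and 0.117 ± 0.01 in the same groups. Neither ratio overlapped between any 2 groups (two-sided exact permutation p = 0.1, the smallest possible), so HAMP fell relative to both of these members of the same library. The ratio of SMAD7 to SMAD6 was 4.18 to 4.72 in the controls, 6.75 to 7.89 after 12 h and 5.52 to 6.80 after 24 h, and only the deprived groups overlapped each other.

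**Figure D3:**
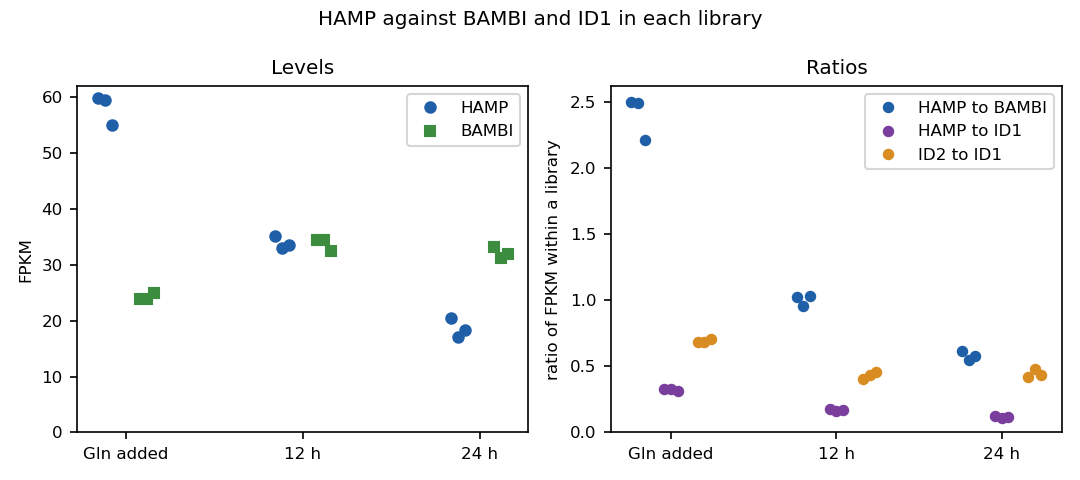
Left, FPKM of HAMP and BAMBI in each library. Right, ratios of FPKM within a library for HAMP to BAMBI, HAMP to ID1 and ID2 to ID1, with 1 point per library in both panels. The mean ratio of HAMP to BAMBI was 2.40 in the controls, 1.00 after 12 h and 0.581 after 24 h, whereas ID2 to ID1 was lower at both times with no gap between them.

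The rest of the pathway was described by lists chosen with earlier results of these data known. Leaving out the members, they hold 88 genes of the table, of which 64 were tested. At 12 h 42 of the 64 were called, 23 higher and 19 lower. At 24 h 45 were called, 25 higher and 20 lower. These shares were near those of all genes tested, of which 60.2% were called at 12 h and 64.7% at 24 h. Of all genes tested 29.1% were called higher and 31% lower at 12 h, and 33% and 31.7% at 24 h. The counts of the single lists below are to be read beside these shares.

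Among the ligands, 2 of 3 tested genes were called at each time. BMP6, the main regulator of hepcidin, rose from 2.35 ± 0.16 FPKM in the controls to 3.28 ± 0.17 after 12 h and 3.73 ± 0.26 after 24 h (SD, n = 3 here and below), a log2 difference of 0.65 at the later time (SE 0.0775, limma adjusted p = 3.08e-05). BMP4 fell, from 30.3 ± 0.60 FPKM to 26.4 ± 0.67 and 24.0 ± 1.11, by 0.33 on the log2 scale at 24 h (limma adjusted p = 4.34e-05). Of 5 tested receptors, 3 rose and 1 fell at 12 h and 3 rose at 24 h. The type I receptor ACVR1 rose from 4.87 ± 0.25 FPKM to 8.81 ± 0.43 and 9.44 ± 0.47 (log2 fold change at 24 h 0.94, limma adjusted p = 2.29e-07), and so did the type II receptors ACVR2B (0.69) and ACVR2A (0.46). BMPR2, the type II receptor dedicated to BMPs, moved by 0.12 on the log2 scale at 24 h (95% confidence interval -0.10 to 0.33, limma adjusted p = 0.316).

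The intracellular carriers of the signal were not called apart from SMAD9. At 24 h the log2 fold change was 0.18 (unadjusted 95% confidence interval 0.00137 to 0.37, limma adjusted p = 0.0717) for SMAD1, -0.04 (-0.33 to 0.25) for SMAD5 and 0.09 (-0.05 to 0.24) for SMAD4. SMAD9 fell from 1.37 ± 0.13 FPKM to 1.00 ± 0.11 and 0.927 ± 0.10 (log2 fold change at 24 h -0.52, limma adjusted p = 0.00367). Phosphorylation of these proteins was not measured.

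Among co-receptors and iron sensors, 3 of 5 tested genes were called at 12 h and 4 at 24 h. HFE, which is mutated in hereditary hemochromatosis, fell from 3.79 ± 0.25 FPKM to 2.36 ± 0.11 and 2.43 ± 0.17, a log2 difference of -0.62 at the later time (limma adjusted p = 4.21e-05). The BMP co-receptor RGMB rose at both times (0.48 and 0.43), and TFR2, a sensor of transferrin iron, rose at 24 h alone (0.25, limma adjusted p = 0.00301), with -0.03 at 12 h (limma adjusted p = 0.72). HJV was under 0.5 FPKM and was not tested.

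The list of antagonists and inhibitors had 11 tested genes. Of these 7 rose and 3 fell at 12 h and 7 rose and 2 fell at 24 h. Over all genes tested, 29.1% were called higher at 12 h and 33% at 24 h. FST, the secreted follistatin that binds activins and some BMPs, rose from 20.9 ± 0.61 FPKM to 63.1 ± 2.75 and 68.5 ± 1.25 (log2 fold change 1.59 at 12 h and 1.71 at 24 h, limma adjusted p = 4.66e-10 and 2.20e-10). SMURF1, a ubiquitin ligase that marks SMADs for breakdown, rose by 0.79 at 24 h on the log2 scale (limma adjusted p = 2.32e-07), and CHRD, which binds BMPs outside the cell, by 0.67 (limma adjusted p = 1.87e-06). TMPRSS6, the liver protease that cleaves hemojuvelin and lowers hepcidin, fell from 1.21 ± 0.10 FPKM to 0.582 ± 0.09 and 0.405 ± 0.11, a log2 difference of -1.39 at the later time (SE 0.189, limma adjusted p = 7.61e-05). HAMP and TMPRSS6 therefore both fell.

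Of other genes known to respond to BMP, 4 were tested. HEY1, a transcriptional repressor, rose from 3.70 ± 0.08 FPKM to 9.88 ± 0.65 and 8.04 ± 0.32 (log2 fold change 1.39 and 1.10), TBX3 rose at 24 h (0.26, limma adjusted p = 0.00143) with 0.11 at 12 h (limma adjusted p = 0.0899) and the other tested genes, MSX1 and GATA6, were not called at 24 h. ATOH8 was below the filter, at a mean of 0.0812 FPKM in the controls, 0.176 after 12 h and 0.133 after 24 h. Of the 5 tested genes that respond to TGF-beta or activin, 4 rose at 12 h, and at 24 h 4 rose and 1 fell. The matricellular gene CCN2 rose from 39.7 ± 1.5 FPKM to 55.3 ± 2.14 and 77.8 ± 4.21 (log2 fold change 0.97 at 24 h, limma adjusted p = 3.71e-08), and both it and the related CCN1 (1.09 at 24 h) rose further from 12 h to 24 h.

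**Figure D4:**
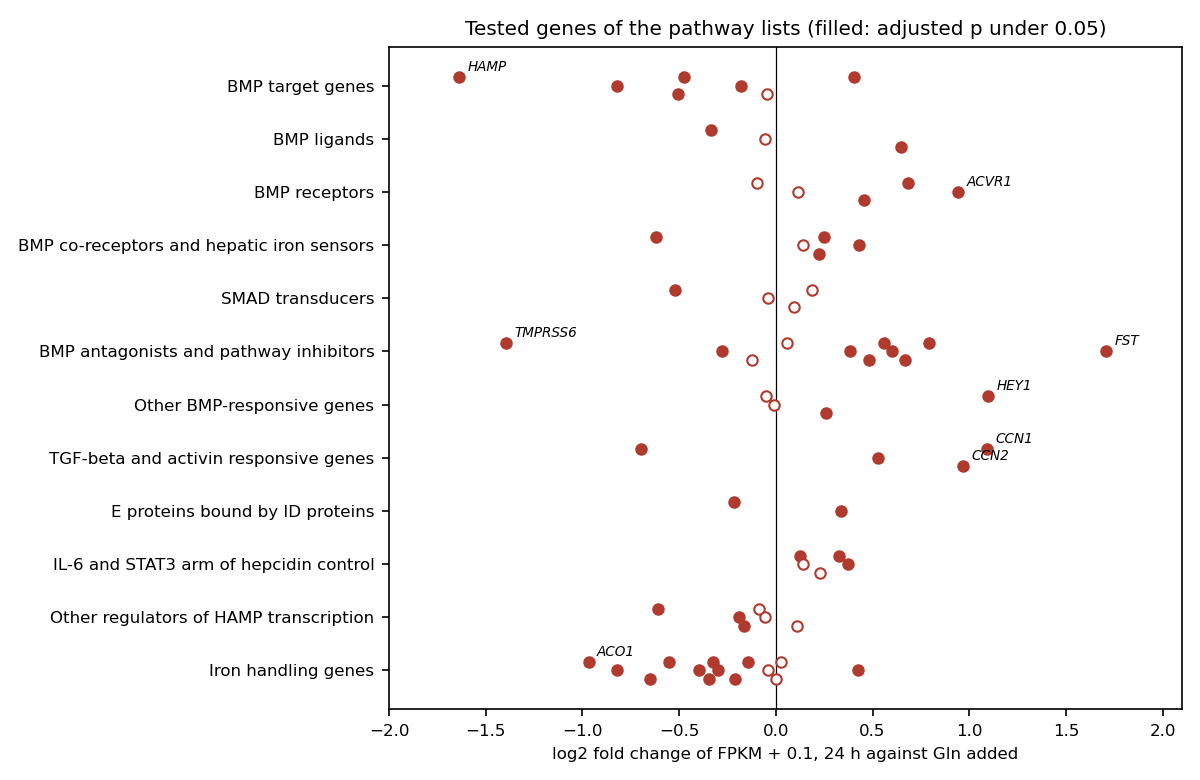
Log2 fold change of FPKM + 0.1 at 24 h against Gln added (horizontal axis) of the tested genes reported, by list (rows), filled where the adjusted p was under 0.05. HAMP (-1.64) and TMPRSS6 (-1.39) lie farthest to the left, FST (1.71) farthest to the right, and most lists hold genes on both sides of 0.

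ID proteins act on the E proteins, and of these TCF12 rose (0.40 at 12 h and 0.33 at 24 h) while TCF3 fell (-0.15 and -0.22, limma adjusted p = 0.0285 and 0.00414). The IL-6 arm is the other main input to HAMP, through STAT3. Of its 5 tested genes 2 rose at 12 h and 3 at 24 h and none fell, with JAK1 at 0.37 at both times, IL6R at 0.18 and 0.32, and STAT3 at 0.13 at 24 h (limma adjusted p = 0.0105) but 0.02 at 12 h (limma adjusted p = 0.585). Among 6 other regulators of HAMP transcription, CEBPA, a liver transcription factor that activates HAMP, fell from 70.1 ± 0.51 FPKM to 57.1 ± 2.83 and 45.8 ± 1.97 (log2 fold change -0.29 and -0.61, limma adjusted p = 0.000197 and 6.14e-07). HDAC3 (-0.19) and CREB3L3 (-0.17) fell at 24 h and were not called at 12 h (-0.08 and 0.05), and the other 3 were called at neither time.

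Hepcidin acts on iron, and of 14 genes of iron handling 10 fell and 2 rose at 12 h and 10 fell and 1 rose at 24 h. TFRC, the receptor for transferrin uptake, fell from 96.3 ± 1.04 FPKM to 68.5 ± 2.96 and 61.2 ± 3.01 (log2 fold change -0.65 at 24 h). ACO1, whose protein is iron regulatory protein 1, fell from 10.4 ± 0.18 FPKM to 5.21 ± 0.10 and 5.27 ± 0.25 (-0.97), and HMOX1, which frees iron from heme, from 61.0 ± 1.42 FPKM to 50.8 ± 2.83 and 34.5 ± 2.01 (-0.82). Over all genes tested, 31% were called lower at 12 h and 31.7% at 24 h. The median over this list was -0.24 at 12 h and -0.31 at 24 h, beside -0.02 and 0.01 over all genes tested.

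All 8 hepatocyte markers were expressed, ALB and APOA1 among the highest. Their summed level was 7381 to 7481 FPKM in the controls, 6473 to 6539 after 12 h and 6258 to 6581 after 24 h. Of the 8, 5 were called lower at each time, beside 31% of all genes tested at 12 h and 31.7% at 24 h. Endothelial markers were all under 0.5 FPKM, with a sum of 0.124 to 0.427 FPKM over all libraries, and the stellate marker DCN was at 0 with Gln added and at 24 h and at most 0.0048 FPKM at 12 h. The sum of the stellate list was almost all ACTA2, at 35.1 to 36.7 FPKM in the controls, 23.5 to 26.4 after 12 h and 22.2 to 22.4 after 24 h. PDGFRB of the same list, below the filter and not tested, averaged 0.156 ± 0.04 FPKM in the controls, 0.385 ± 0.09 after 12 h and 0.667 ± 0.09 after 24 h (SD, n = 3), and its groups did not overlap. The cholangiocyte list summed to 324 to 333 FPKM, 300 to 307 and 314 to 318 in the same order, a sum of KRT19, which fell (log2 fold change -0.71 and -0.64, limma adjusted p = 8.31e-07 and 1.30e-06), SOX9, which rose (0.71 and 0.75, limma adjusted p = 8.59e-07 and 3.69e-07), and EPCAM, which was called at neither time (-0.07 and -0.02), while KRT7 was near 0. CD68 and CD14 of the blood list summed to 37.4 to 37.7, 29.6 to 32.7 and 22.2 to 26.9. The part of these marker differences in the fall of HAMP was not tested.

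For each tested member the 3 genes with the most similar pattern over the 9 libraries were found by the root mean square difference of the log2 levels, centred on Gln added. They were CKB, GSTA1 and KIF20A for HAMP (0.066 to 0.079), CCNE1, SULF2 and BRCA1 for ID2 (0.056 to 0.063), SERPINF2, POLR2E and RNPEP for ID3 (0.028 to 0.039) and GAS2, PKP4 and RBM10 for ID1 (0.037 to 0.042). CASP8AP2, FKBP1B and GTF2H5 were nearest to SMAD6 (0.055 to 0.069), ENTR1, NCOR1 and ARHGAP35 to BAMBI (0.032 to 0.039), and TMEM39B and NFATC2 were among the nearest to SMAD7 (0.044 and 0.047). None of them was another member. With only 3 genes kept out of the 11880 tested, this says little about whether members share a pattern. Between members the most similar pair was ID1 and SMAD7 (0.093) and the least similar was HAMP and BAMBI (1.39).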

How the data were processed

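RNA-seq libraries of HepG2 cells in 3 groups of 3 were used. The authors aligned reads to GRCh38 with STAR and deposited FPKM per gene; the submitters' processing notes name HTSeq and R 3.2.0. The methods describe strand-specific libraries from another kit than the labels name, and the strand setting of the counting is not given in the sources used here. Members and gene lists were chosen with earlier results of these data known, and the files' values were not scaled further.

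Tests used limma 3.58.1 in R 4.3.3 (lmFit, eBayes with a trend) on log2(FPKM + 0.1), a scale that understates changes of low genes, with 1 fit over all 9 libraries over genes averaging 0.5 FPKM or more. The count test of the methods was not the main test because FPKM are not counts. The scripts were tested on simulated data. Whole fragments, within 0.01 of a fragment, were recovered from the FPKM steps of 100% of genes. All replicate pairs differed beyond sampling noise. Alternatives comprised pseudocounts of 1 and 0.01, no filter, a minimum mean of 1 FPKM, rescaled totals, median-ratio scaling, only the groups compared, a replicate block, no trend, voom on the recovered fragments and each library left out.

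Besides all members, the text names up to 3 genes per list with the largest change at 24 h (adjusted p under 0.05, mean of at least 1 FPKM), SMAD1, SMAD5, SMAD4, BMPR2, TMPRSS6, ATOH8 and the nearest genes. HJV, MSX1, GATA6 and the markers were named outside this rule, after their values were seen. Some genes that the rule selects are left out. Figures used matplotlib 3.10.9.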

Additional observations from a re-analysis of the deposited data

Results flagged for a closer look

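The change against Gln added differed between 24 h and 12 h for 5 of the 7 tested members and for 12 named genes of the pathway. This was limma's test of the difference itself (adjusted p under 0.05), which called 20.1% of all genes tested. Most of the named genes were picked for a large change at 24 h. Over the whole pathway lists, 18 of the 64 tested genes were called between the times. The log2 difference was -0.86 for HAMP, -0.33 for ID1, -0.30 for ID2, -0.20 for ID3 and -0.19 for SMAD7. ID1 changed direction, from 0.15 at 12 h to -0.18 at 24 h, which HAMP, ID2 and ID3 did not. Among pathway genes, the difference was positive for CCN1 (0.61), CCN2 (0.49), CHRD (0.34), TFR2 (0.27), SMURF1 (0.17) and IL6R (0.15). It was negative for HMOX1 (-0.56), CEBPA (-0.32), HEY1 (-0.29), CREB3L3 (-0.21), TFRC (-0.16) and BMP4 (-0.14). The 24 h group was kept in culture longer than the 12 h group and the labels do not give the harvest time of the group with Gln added, so that time in culture and time without Gln cannot be told apart.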

How the results depend on the processing

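Of 399 values of the members under 19 alternative settings, 382 kept their direction and their side of the threshold, among them every value of HAMP, BAMBI, SMAD6, ID1 and ID2. The 17 others were values of ID3 and SMAD7. The log2 fold change of SMAD7 at 24 h, which was not called, went from -0.04 to 0.0037 with rescaled totals and ranged from -0.076 to 0.0027 when 1 library was left out. Between 12 h and 24 h, 3 to 5 members were called when 1 library was left out, and the pathway lists had 11 genes called with only the groups compared and 11 to 21 with 1 library left out, against 18. Other uncalled values that changed sign were those of TFR2 at 12 h (0.0077 with rescaled totals, -0.075 to 0.018 with 1 library left out), SMAD4 at 12 h (-0.026 to 0.057 with 1 library left out) and SMAD5 at 24 h (0.0062 with rescaled totals, -0.15 to 0.10 with 1 library left out). The causes were not tested. Deviations from the group means correlated at -0.14 to 0.28 between same-numbered replicates and at -0.47 to 0.30 between the others. With 3 libraries per group these values cannot settle whether the numbers pair the libraries. With the number as a replicate block, 7, 6 and 5 members were called at 12 h, at 24 h and between the times, as without it. Depth limits ID4, at 17 to 62 fragments.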
